A study of Mus musculus with 26 samples.

Results

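The genes Klf2, Klf4, Klf5 and Klf17 are 4 of the 55291 genes counted in poly(A) RNA-seq of mouse R1 embryonic stem cells (ESCs). They were chosen by name and not by a cut-off on their values, with earlier results of these data known. All 4 passed the filter on low counts and were among the 20953 genes tested. The data were 26 libraries in 13 groups of 2 replicates, from cells grown with leukemia inhibitory factor (LIF) on gelatin. Cells without a genetic change were untreated (ESC), given the solvent DMSO, given 0.53 µM retinoic acid (RA) for 48 h, or given the splicing inhibitor pladienolide B (PlaB) at 4 nM over 4 days. Doxycycline at 4 µg/mL for 24 h drove overexpression (OE) of the 2-cell-stage factor Zscan4, of the double homeobox factor Dux, or of DuxR70A, a form of Dux with an arginine replaced by alanine. Dux knockdown (Dux KD) by shRNA was combined with RA, PlaB or Zscan4 OE, and the labels of Dux KD Zscan4 OE give no doxycycline dose or time. Deletion of the Tdpoz super-enhancer by CRISPR-Cas9 (SE KO) was combined with RA, PlaB or Dux OE. Neither the uninduced transgenic lines nor KD or KO cells without an induction were analysed here. DMSO therefore served as the control of the compounds and untreated ESC as that of the doxycycline inductions. An effect of the line itself cannot be told apart from that of the transgene, the knockdown or the deletion. The labels give no time for DMSO or untreated ESC, and the same DMSO libraries were set against RA at 48 h and PlaB over 4 days. An effect of time in culture cannot be told apart from that of a compound or transgene. The libraries that compare SE KO with unedited cells in RA and in Dux OE are described as biological replicates. For the other groups the sources used here do not say that replicates came from separate cultures, nor for any group how many clones or shRNAs were sequenced, so p-values measure the spread between these libraries, which may be technical.

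Klf2, Klf4 and Klf5 encode Krüppel-like factors, zinc finger proteins that bind GC-rich and CACCC sequences. They are known to act in part redundantly to keep mouse ESCs in the naive pluripotent state, Klf4 as a target of LIF and STAT3 signalling and a factor used to reprogram somatic cells, Klf2 as a factor opposed by MEK-ERK signalling, and Klf5 as a factor of the early embryo, of the inner cell mass and of the trophectoderm. Klf17 is a member of the family known from oocytes and early embryos.

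On mm10, Klf2 (ENSMUSG00000055148) lies on the plus strand at chr8:72319033-72321656, Klf4 (ENSMUSG00000003032) on the minus strand at chr4:55527143-55532466, Klf5 (ENSMUSG00000005148) on the plus strand at chr14:99298691-99315036, and Klf17 (ENSMUSG00000048626) on the minus strand at chr4:117757836-117765648. The annotation used here (GENCODE M21) gave each gene the same span, as protein coding, with no other gene overlapping it. Counts fell on exons of 1847 bases in Klf2, 3049 in Klf4, 5201 in Klf5 and 2400 in Klf17, untranslated parts included. RefSeq promoter sequence (GRCm38.p6) was found for 3 of the 4 genes, Klf2, Klf4 and Klf17. The windows lie before the start of the gene both in RefSeq and in the count table, and those of Klf4 and Klf17 end a few bases short of the start in the table. They are shown because Klf2 and Klf4 moved together in PlaB and apart in SE KO RA, and Klf17 moved against both in PlaB. The calls of Klf17 in PlaB and of Klf2 in SE KO RA did not hold in every setting, as given below. Whether these sequences bear on the levels was not tested. The window of Klf2 was chr8:72318812-72319032 (plus strand), that of Klf4 chr4:55532476-55532725 (minus strand) and that of Klf17 chr4:117765667-117765916 (minus strand). Capitals mark the GC box GGGCGG and the CACCC box GGGNGTGG, on either strand.
Klf2: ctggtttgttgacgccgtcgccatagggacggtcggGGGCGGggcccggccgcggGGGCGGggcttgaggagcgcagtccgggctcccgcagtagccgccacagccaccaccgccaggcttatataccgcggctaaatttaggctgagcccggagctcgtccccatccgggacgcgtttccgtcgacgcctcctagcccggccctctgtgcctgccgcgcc
Klf4: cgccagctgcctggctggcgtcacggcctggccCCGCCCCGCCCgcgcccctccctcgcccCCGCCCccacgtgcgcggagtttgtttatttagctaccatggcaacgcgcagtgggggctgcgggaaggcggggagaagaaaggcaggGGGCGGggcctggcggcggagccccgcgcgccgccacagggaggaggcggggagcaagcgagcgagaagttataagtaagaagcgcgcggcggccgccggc
Klf17: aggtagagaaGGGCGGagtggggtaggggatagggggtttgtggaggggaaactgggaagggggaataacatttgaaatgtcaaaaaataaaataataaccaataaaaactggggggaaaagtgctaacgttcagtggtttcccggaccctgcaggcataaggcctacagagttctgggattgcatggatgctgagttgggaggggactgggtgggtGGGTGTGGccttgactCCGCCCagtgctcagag

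The Klf2 window held 2 GC boxes, the Klf4 window 4 (a pair of them overlapping) and the Klf17 window 2, with a CACCC box in that of Klf17 only among the 3. A GC box occurred in 35.7% of the 32851 promoters of 300 bases in the table and a CACCC box in 17.6%. The GC content was 71.5% in the Klf2 window, 74.0% in that of Klf4 and 52.0% in that of Klf17. The letters TTCNNNGAA, a motif of STAT factors, were in none of the 3 and in 8.30% of all promoters.

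The libraries held between 14401452 and 39402840 counts, so that 3 counts, taken as the floor, corresponded to 0.0796 to 0.226 CPM, the count relative to the library total after scaling by its TMM factor. ESC markers were detected in every library, with a summed level of 8 genes between 3297 and 7543 CPM. The sum does not show the single genes. In PlaB it was 5704 to 6251 CPM, with Dppa5a at 2553 CPM against 1408 in DMSO and Nanog at 74.1 against 911. Of the 8 genes, 1 was called higher and 4 lower in PlaB against DMSO, beside 58.9% of all genes. Duxf3, the Dux gene in the table and the target of the knockdown, had a mean level of 8.73 CPM in PlaB against 0.0295 in Dux KD PlaB. In the RA pair the means were 2.45 without and 0.636 with knockdown, and in the Zscan4 OE pair 1.34 without and 0.0325 with it. It had 3.63 CPM in Dux OE and no counts in either DuxR70A OE library, so it gives no check of the mutant transgene. Several libraries went against their labels or stood apart. The Dux KD PlaB libraries kept a median share of 0.103 of the PlaB response over 12328 genes. That lay within the 0.0824 to 0.243 of groups given no PlaB. SE KO PlaB kept 0.261, little above the highest of those groups, Dux KD RA. Of the RA response over 6496 genes, SE KO PlaB kept 0.593, PlaB 0.639 and SE KO RA 0.678. Why the PlaB share of SE KO PlaB was this low was not tested. None of 10 2-cell genes was called against DMSO in Dux KD PlaB, while all 10 were called higher in SE KO PlaB. In Dux KD Zscan4 OE against Zscan4 OE, 9 of these 10 genes were called lower and none higher, beside 11.1% of all genes. In Dux KD RA against RA 3 were lower and 1 higher, beside 10.9%. The 2-cell genes therefore cannot tell a missing PlaB response from an effect of the knockdown. Whether the Dux KD PlaB cells responded to PlaB at all cannot be told from these libraries, so their values are also given against DMSO. A genotype label of SE KO RA replicate 1 reads WT while its title reads SE KO, and the treatment label of Dux KD Zscan4 OE reads no.

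Per kb of exon, Klf2 had the highest level of the 4 genes in untreated ESC, followed by Klf4 and Klf5, and Klf17 was low. The summed level of the 4 genes in ESC was 281 ± 5.77 CPM per kb (SD, n = 2), of which Klf2 made up 41.7%, Klf4 32.6%, Klf5 25.6% and Klf17 0.111%. In DMSO the sum was 301 ± 3.82, with 21.3% from Klf2 and 56.7% from Klf4. PlaB had the lowest sum, 68.3 ± 11.8 CPM per kb, with 57.9% ± 3.17 from Klf5 and 5.23% ± 0.829 from Klf2. SE KO RA had a sum of 189 ± 11.6 and the opposite makeup, with 85.7% ± 1.30 from Klf2, 8.36% ± 0.728 from Klf4 and 5.73% ± 0.518 from Klf5. In the other 11 groups Klf2 made up between 21.3% and 46.5%. These shares are a description, with no test.

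**Figure D1:**
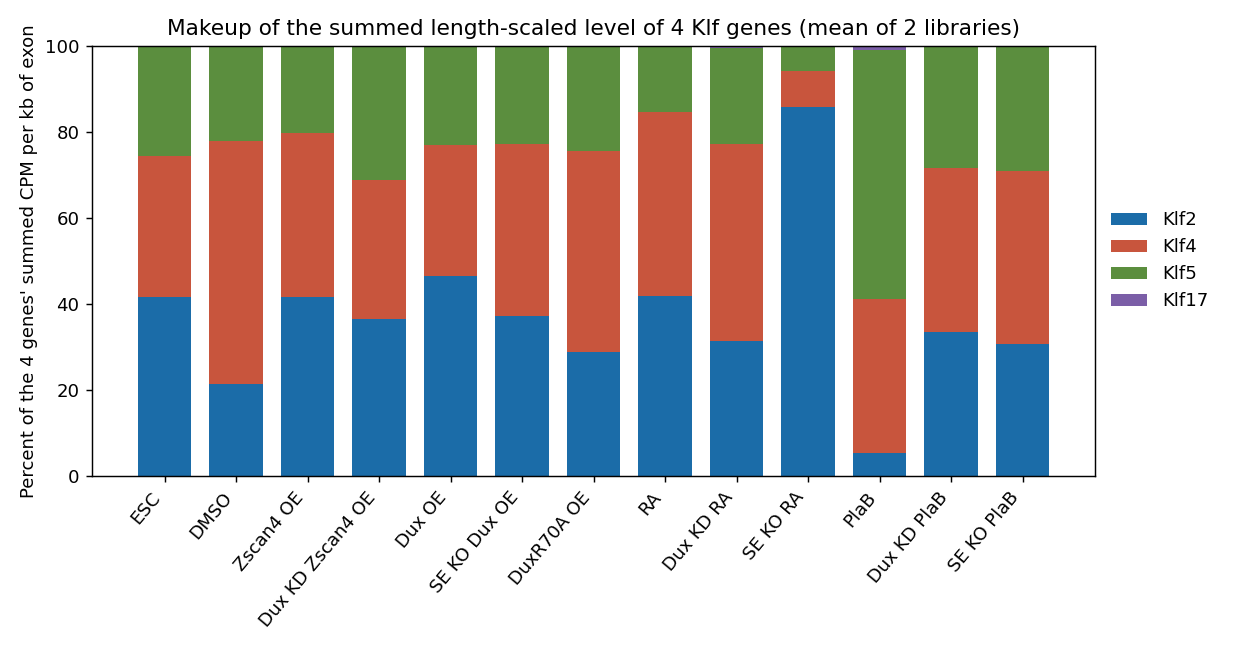
Stacked bars give the mean percent (2 libraries a group) of the summed CPM per kb of exon of the 4 genes taken by each gene, in 13 groups. Klf2 fills 85.7% of the SE KO RA bar and 5.23% of the PlaB bar, where Klf5 fills 57.9%.

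Klf2 had the widest range of group means, 45.9-fold. Its level was highest in SE KO RA, at 315 and 283 CPM, then 226 and 235 in Zscan4 OE, 217 and 216 in ESC, and 200 and 197 in Dux OE. It was 116 and 120 CPM in DMSO, 142 and 154 in RA, and lowest in PlaB, at 6.44 and 6.58. The PlaB libraries lay more than an order of magnitude under every other library, whose lowest value was 98.7 CPM in Dux KD RA. In this order 4 of the 12 pairs of neighbouring groups had overlapping libraries, among SE KO Dux OE, RA, Dux KD PlaB, DuxR70A OE, SE KO PlaB and DMSO.

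Klf4 ranged over 10.8-fold between group means. It was highest in DMSO, at 512 and 528 CPM, above every other library. Zscan4 OE (350 and 349) and DuxR70A OE (340 and 343) followed, with ESC at 288 and 271. It was lowest in SE KO RA, at 47.1 and 48.9 CPM, and next lowest in PlaB, at 68.5 and 80.9. The replicates of Dux KD Zscan4 OE stood far apart, at 353 and 181 CPM, the widest replicate spread of this gene.

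Klf5 ranged over 7.48-fold. Its group means were highest in Dux KD Zscan4 OE (467 and 374 CPM), ESC (379 and 369) and DMSO (350 and 337). The lowest were SE KO RA (55.0 and 57.3), RA (153 and 148), Dux KD RA (both 199) and PlaB (174 and 240). All libraries given RA thus lay under all libraries given neither RA nor PlaB, whose lowest value was 240 CPM. The wild-type PlaB libraries overlapped those of Dux KD RA.

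Klf17 was detected at 4 to 31 counts a library, between 0.217 and 1.71 CPM, and counting error is large at this depth. Its group means were highest in Dux KD RA (1.32 and 1.71 CPM), PlaB (mean 1.34 ± 0.227, SD, n = 2), RA (1.37 and 1.21) and Dux OE (0.948 and 1.62). They were lowest in DMSO (0.397 and 0.494) and Zscan4 OE (0.388 and 0.217). Of the 12 pairs of neighbours in this order 10 overlapped.

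**Figure D2:**
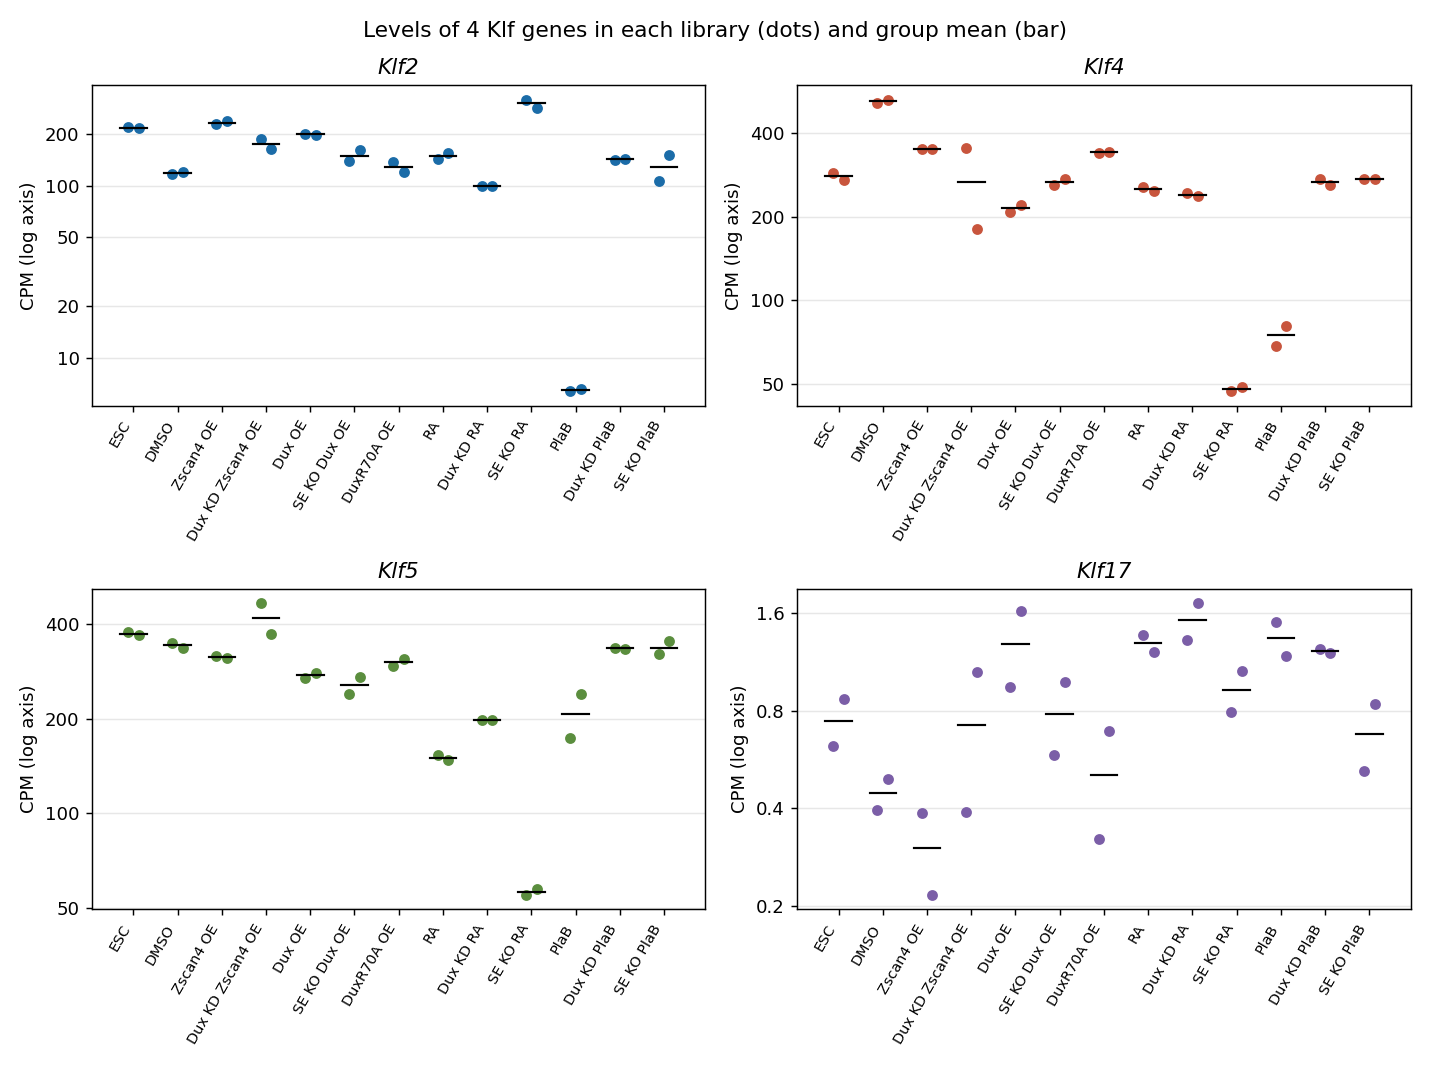
Each panel shows 1 gene, with CPM on a log axis for both libraries (dots) of each of 13 groups and their mean (bar). PlaB lies at 6.51 CPM in the Klf2 panel while SE KO RA, at 299, is the highest; SE KO RA is the lowest in the Klf4 and Klf5 panels, at 48.0 and 56.1.

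Differences were tested in 1 edgeR model of all 26 libraries, and calls needed an adjusted p (Benjamini-Hochberg) under 0.05 and a log2 fold change of 1 or more in size. Values are log2 fold changes ± a standard error derived from the F statistic of the test, so it is not a measure apart from the p-value. That error rests on a spread estimated over all groups, so it can be too small for groups whose replicates stood apart. Replicates differed most in Dux KD Zscan4 OE and SE KO PlaB (chi-square per degree of freedom 26.1 and 30.2). In RA against DMSO, 3 of the 4 genes were called, beside 31.0% of all genes tested. Klf5 fell by 1.19 ± 0.11 (adjusted p = 3.0e-10) and Klf4 by 1.05 ± 0.15 (adjusted p = 1.1e-06), both just past the threshold, and neither was called with scaling by library size only (-1.0 and -0.86), which shifts every log2 fold change of this comparison by 0.19. Klf17 rose by 1.52 ± 0.48 (adjusted p = 0.00879), from 7 and 9 counts to 31 and 26. Klf2 differed by 0.32 ± 0.11 (adjusted p = 0.0130) and was not called. The control mattered, because DMSO itself differed from untreated ESC by 0.90 ± 0.15 in Klf4 (adjusted p = 2.2e-05) and by -0.87 ± 0.11 in Klf2 (adjusted p = 3.2e-07), not called, in a comparison with 16.2% of genes called. Against untreated ESC the difference of Klf2 in RA was -0.55, that of Klf4 -0.16 and that of Klf17 0.79, and of the 4 genes Klf5 alone was called. The Klf17 call was also lost without DMSO replicate 1 (log2 fold change 1.33, adjusted p = 0.0790).

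PlaB against DMSO gave the largest falls of Klf2 and Klf4 among the wild-type inductions. Klf2 fell 18.1-fold, from 2037 and 2197 counts to 133 and 145 (log2 fold change -4.18 ± 0.14, adjusted p = 5.7e-20). Klf4 fell 6.96-fold (-2.80 ± 0.16, adjusted p = 8.1e-15). Klf5 differed by -0.73 ± 0.11 (adjusted p = 6.6e-07), under the fold threshold. Klf17 rose 2.97-fold (1.57 ± 0.48, adjusted p = 0.00484), a call lost without DMSO replicate 1 (1.32, adjusted p = 0.0590) and against untreated ESC (0.85, adjusted p = 0.0966). In this comparison 58.9% of all genes tested were called, so 3 called genes of 4 are read against that share.

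No member was called in Zscan4 OE against ESC, with 11.6% of all genes called, and none in Dux OE against ESC, with 9.51%. In the latter Klf5 had a log2 fold change of -0.44 ± 0.11 (adjusted p = 0.00223), and Klf2 one of -0.12 ± 0.11. With DMSO in place of ESC as the control of Dux OE, Klf4 (-1.28) and Klf17 (1.52) were called, beside 18.2% of all genes tested, and Klf2 was at 0.75. In DuxR70A OE against ESC no member was called beside 16.9% of genes, with Klf2 at -0.75 ± 0.11 (adjusted p = 2.8e-06) and Klf4 at 0.29 ± 0.15, past no threshold. With DMSO as the control, where 9.05% of genes were called, both turned, to 0.12 in Klf2 (adjusted p = 0.444) and -0.61 in Klf4 (adjusted p = 0.00260). DuxR70A OE against Dux OE had 1 member called beside 13.6% of genes. Klf17 was lower by -1.37 ± 0.50 (adjusted p = 0.0325), from 13 and 24 counts to 6 and 11, and this call was lost with DESeq2 (-1.38, adjusted p = 0.0535), with library size only (-1.18), with no low-count filter (-1.29), without Dux OE replicate 2 (-0.90) and without DuxR70A OE replicate 1 (-0.90). Klf4 was at 0.67 ± 0.15 (adjusted p = 8.9e-04) and Klf2 at -0.63 ± 0.11 (adjusted p = 5.1e-05) in that comparison, neither called.

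**Figure D3:**
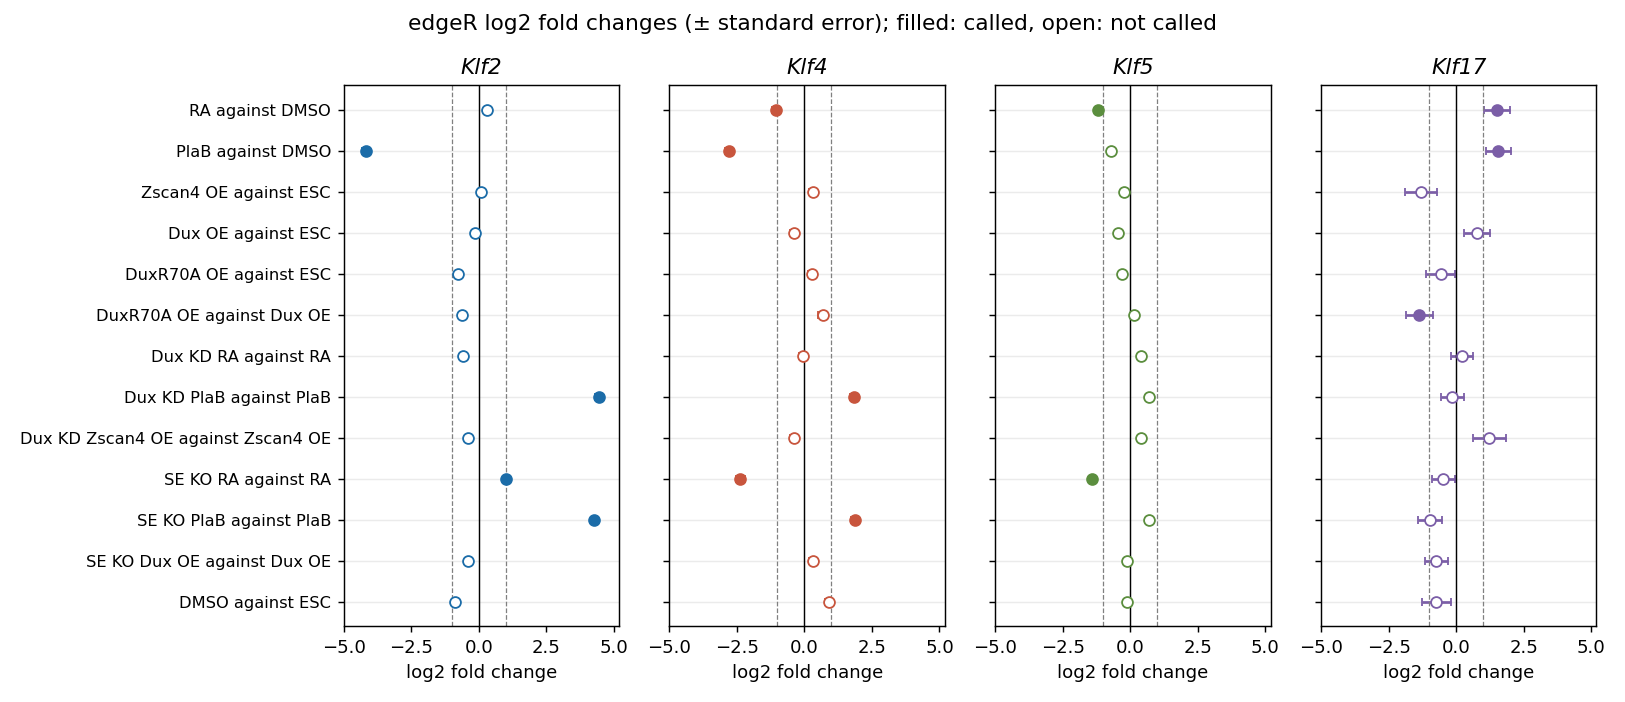
Dots give the log2 fold change of each gene in 13 comparisons, with the standard error as a bar (hidden by the dot where short). Filled dots were called and open dots were not, dashed lines mark 1 and -1; Klf2 lies at -4.18 in PlaB against DMSO and above 4 in both comparisons of altered with wild-type PlaB cells.

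The Dux knockdown was set against the induction of the same name without it. No dose or time is given for Dux KD Zscan4 OE, so that pair may not be matched. In Dux KD RA against RA no member was called beside 10.9% of genes, with Klf2 at -0.57 ± 0.11 (adjusted p = 1.9e-04) and Klf5 at 0.41 ± 0.11 (adjusted p = 0.00367). In Dux KD Zscan4 OE against Zscan4 OE none was called beside 11.1%, with Klf2 at -0.40 ± 0.11 and Klf5 at 0.41 ± 0.11. Without replicate 1 of Dux KD Zscan4 OE, Klf4 was at -0.98 and Klf17 was called (1.78, adjusted p = 0.0435). Without replicate 2, Klf4 was at 0.01. In Dux KD PlaB against PlaB, with 54.9% of all genes called, Klf2 was higher by 4.44 ± 0.14 (adjusted p = 2.3e-20) and Klf4 by 1.83 ± 0.16 (adjusted p = 4.4e-11). Klf5 was at 0.70 ± 0.11 and Klf17 at -0.14 ± 0.42, not called. Against DMSO the same libraries had 11.7% of genes called and Klf2 at 0.27 ± 0.11 (adjusted p = 0.0654), Klf5 at -0.03 ± 0.11 and Klf4 at -0.96 ± 0.15 (adjusted p = 1.5e-05), none of them called. Klf17 was called there (1.44 ± 0.50, adjusted p = 0.0274), and lost the call when either DMSO replicate or either Dux KD PlaB replicate was left out. The comparisons of PlaB share the PlaB or DMSO libraries, so their values are not independent.

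SE KO cells differed from unedited cells in a different way in each induction. In SE KO RA against RA, 3 of the 4 genes were called, beside 17.6% of all genes. Klf4 fell 5.22-fold, from 255 and 247 CPM to 47.1 and 48.9 (-2.38 ± 0.16, adjusted p = 5.7e-12). Klf5 fell 2.67-fold, from 153 and 148 to 55.0 and 57.3 (-1.42 ± 0.11, adjusted p = 8.4e-11). Klf2 rose 2.02-fold, from 142 and 154 to 315 and 283 (1.02 ± 0.11, adjusted p = 2.3e-08). The libraries of RA and SE KO RA did not overlap in these genes, and the share of all genes with no overlap was not counted. Without SE KO RA replicate 1, the library with the conflicting label, Klf4 was at -2.36, Klf5 at -1.39 and Klf2 at 0.94, just under the fold threshold (adjusted p = 2.6e-06). Klf2 was also under it without RA replicate 1 (0.96) and with scaling by library size only (0.97). Against DMSO, with 27.1% of genes called, Klf4 was lower by -3.44 ± 0.17, Klf5 by -2.61 ± 0.11 and Klf2 higher by 1.34 ± 0.11 (adjusted p = 2.3e-15, 2.5e-16 and 6.5e-11).

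**Figure D4:**
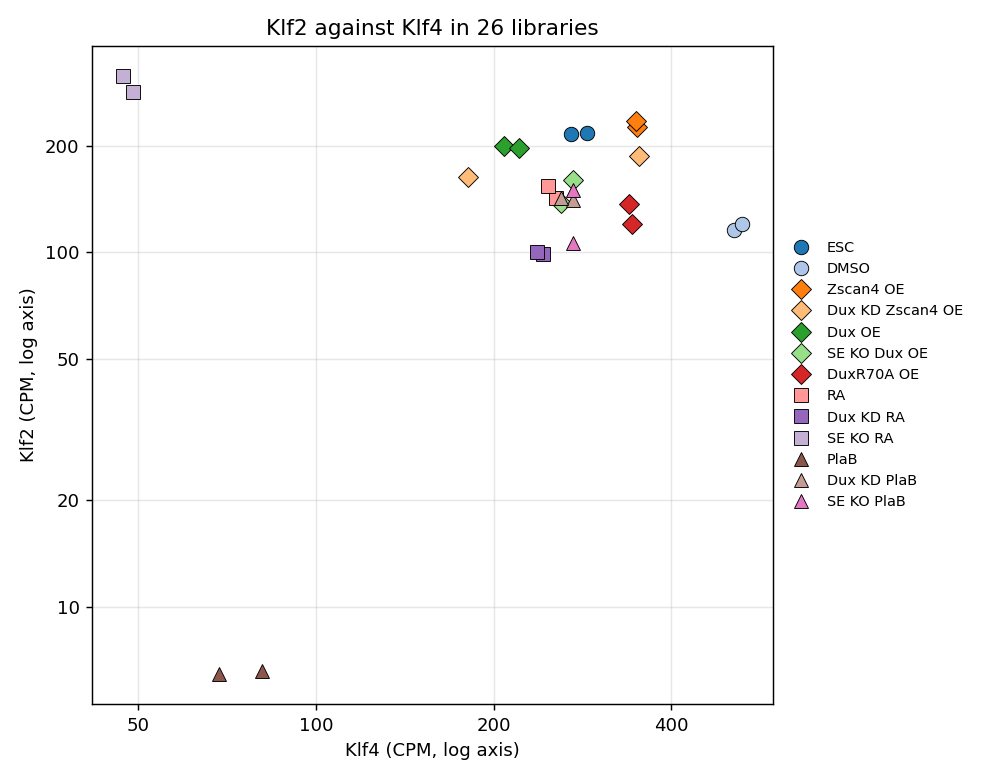
Each point is 1 of 26 libraries, by its Klf4 (horizontal) and Klf2 (vertical) level in CPM on log axes, with the group by colour and shape. The SE KO RA libraries stand alone at the upper left (47.1 and 48.9 CPM Klf4, 315 and 283 CPM Klf2) and the PlaB libraries at the lower left.

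In SE KO PlaB against PlaB, with 52.0% of all genes called, Klf2 was higher by 4.29 ± 0.14 and Klf4 by 1.87 ± 0.16 (adjusted p = 4.5e-20 and 2.9e-11). Klf5 was at 0.71 ± 0.11 and Klf17 at -0.98 ± 0.44 (adjusted p = 0.0472), short of the fold threshold. Klf17 was called with the replicate number as a block (-1.0, adjusted p = 0.0339), with RLE scaling (-1.10, adjusted p = 0.0262), with library size only (-1.10, adjusted p = 0.0250) and without SE KO PlaB replicate 2 (-1.33, adjusted p = 0.0409), and its value ranged from -1.33 to -0.64 when 1 replicate was left out. Against DMSO no member was called, beside 28.1% of genes, and Klf2 was at 0.12 ± 0.11, Klf5 at -0.02 ± 0.11 and Klf4 at -0.93 ± 0.15 (adjusted p = 8.0e-06). In SE KO Dux OE against Dux OE none was called beside 6.30% of genes, with Klf2 at -0.41 ± 0.11 (adjusted p = 0.00611).

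Whether the effect of KD or KO differed between inductions was tested directly. The Dux KD effect in PlaB minus that in RA had 52.2% of all genes called, with Klf2 at 5.02 ± 0.18 and Klf4 at 1.90 ± 0.22 (adjusted p = 8.6e-19 and 1.6e-08). In PlaB minus in Zscan4 OE it had 49.2%, with Klf2 at 4.84 ± 0.18 and Klf4 at 2.22 ± 0.22. In Zscan4 OE minus in RA it had 12.3%, and no member was called. The SE KO effect in PlaB minus in RA had 49.0% of genes called, with Klf4 at 4.25 ± 0.23, Klf2 at 3.28 ± 0.18 and Klf5 at 2.13 ± 0.15 (adjusted p = 2.7e-15, 3.6e-15 and 1.7e-12). In PlaB minus in Dux OE it had 45.1%, with Klf2 at 4.71 ± 0.18 and Klf4 at 1.56 ± 0.22. In Dux OE minus in RA it had 20.8%, with Klf4 at 2.70 ± 0.22, Klf5 at 1.31 ± 0.15 and Klf2 at -1.43 ± 0.15. Klf17 was called in none of these 6 differences. In that of the Dux KD effect between PlaB and Zscan4 OE it was at -1.37 (adjusted p = 0.111), and it was called without Dux KD Zscan4 OE replicate 1 (-1.81, adjusted p = 0.0450, with a range of -1.81 to -0.41 over the replicates left out). Klf5, at 0.81 in the SE KO effect in PlaB minus in Dux OE, was called without PlaB replicate 2 (1.08, adjusted p = 1.5e-07, with a range of 0.65 to 1.08).

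Genes known to work with or upstream of the Klf genes were counted from lists, and each count is read beside the share of all genes called, which was 31.0% in RA, 58.9% in PlaB, 17.6% in SE KO RA against RA and 27.1% in SE KO RA against DMSO. Of 12 genes of the LIF-STAT3 pathway, 8 were called lower in PlaB and none higher, with a median log2 fold change of -1.33 against 0.22 over all genes. Il6st, the shared receptor subunit of the pathway, was at -3.62, the kinase gene Pim1 at -2.39 and the homeobox gene Gbx2 at -4.48. In RA 3 were lower and 2 higher, and in SE KO RA against RA Tfcp2l1 (-1.57) and Tbx3 (-1.45), both transcription factor genes, were lower and none was higher.

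Of 12 naive pluripotency partners, 7 were lower in RA and none higher (median -1.17), 7 lower and 2 higher in PlaB (median -2.62), and 6 lower and 1 higher in SE KO RA against RA (median -1.05, against -0.04 over all genes). In the last comparison Esrrb (-2.45), Nr0b1 (-1.88) and Nr5a2 (-1.45), genes of nuclear receptors, led the falls. In SE KO RA against DMSO 9 of the 12 were lower and none higher, with Esrrb at -3.62. In PlaB Sox2, a core pluripotency factor, was at -4.50. Of 12 genes of the MEK-ERK pathway and its feedback, 6 were lower in RA and none higher, led by the feedback inhibitor Spry4 (-4.78), and 7 were lower and 1 higher in PlaB, led by the inhibitor Spred1 (-4.70). In SE KO RA against RA 1 was lower, the ETS factor Etv5 (-1.68), and 1 higher, the kinase Mapk3 (1.01).

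The other Klf genes moved in both directions in RA and PlaB. Of 13, 3 rose and 3 fell in RA, with Klf15 at -3.25, Klf6 at 1.52 and Klf7 at 1.41, and 3 rose and 5 fell in PlaB, with Klf15 at -2.82, Klf8 at -2.44 and Klf14 at 2.03, from 4 and 2 counts in DMSO. Their median log2 fold change was -0.31 in RA, against 0.10 over all genes, and -0.72 in PlaB, against 0.22. In SE KO RA against RA 4 rose and none fell, among them Klf14 (1.62) and Klf11 (1.16), with a median of 0.64 against -0.04 and 17.6% of all genes called. Klf14 was low there, at 0.228 CPM in RA and 0.709 in SE KO RA, and had at most 17 counts in any library. None of the 13 genes was called in Zscan4 OE, Dux OE or DuxR70A OE against ESC, beside 11.6%, 9.51% and 16.9% of all genes. Of the 8 Sp genes tested, which encode the related Sp zinc finger factors, 5 fell in PlaB and none rose, with Sp1 at -3.53 and Sp4 at -3.31, beside 58.9% of all genes called in either direction. Sp5 had 14 and 8 counts in DMSO and none in either PlaB library, and was at least 4.38-fold lower, with 3 counts per library as the floor. The median of the Sp genes in PlaB was -1.89 with Sp5 at that bound and -1.99 as fitted. Of 13 immediate early genes tested, a class that answers stimuli fast, 2 rose and 3 fell in RA, 4 rose and 1 fell in PlaB, and 4 rose and none fell in SE KO RA against RA, led by Atf3 (2.13). Their median was -0.59 in RA, 0.56 in PlaB and 0.52 in SE KO RA against RA, where it was 0.67 with 1 gene of very few counts at its bound or left out. In DuxR70A OE against ESC 6 rose and none fell, with Egr1 at 3.13 and a median of 0.87 against 0.00 over all genes. The same list had 5 higher and none lower in Zscan4 OE against ESC (median 0.65, Egr1 at 3.68), 4 higher and none lower in DMSO against ESC (median 0.61, beside 16.2% of all genes called), and 2 higher and 1 lower in Dux OE against ESC.

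**Figure D5:**
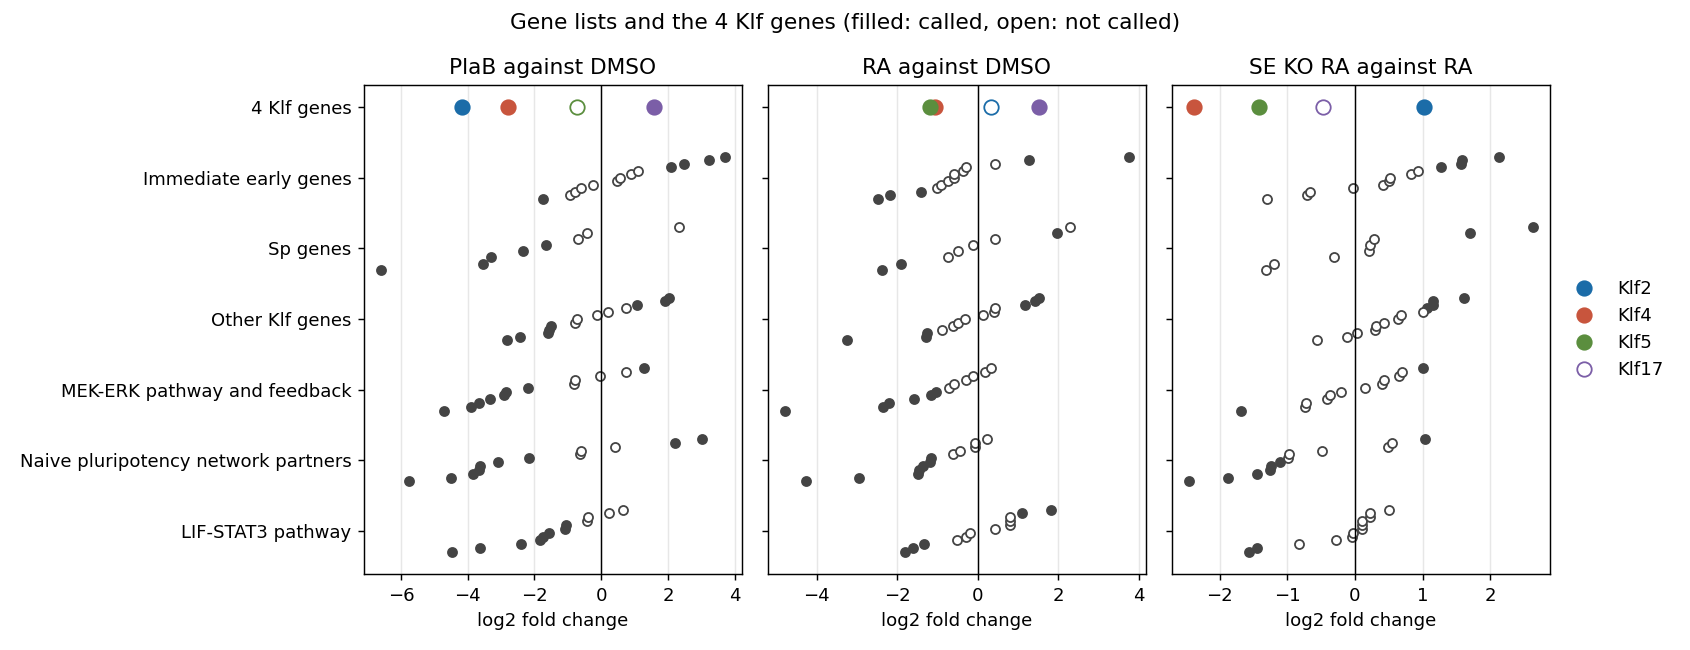
Each point is 1 gene of a list, by its log2 fold change in PlaB or RA against DMSO or in SE KO RA against RA, with the 4 Klf genes in colour at the top. Filled points were called and open points were not; in SE KO RA against RA Klf2 (1.02) lies to the right while Klf4 (-2.38) and Klf5 (-1.42) lie to the left, where 6 of 12 naive partners were called lower.

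Other cell types express Klf2, Klf4 or Klf5 too, so their markers were summed. Counts of called markers are read beside the share of all genes called. It was 58.9% in PlaB and 31.0% in RA, each against DMSO. It was 17.6% in SE KO RA against RA and 6.30% in SE KO Dux OE against Dux OE. The endothelial list of 8 genes stood at 353 and 359 CPM in PlaB and at 139 and 141 in DMSO, with Emcn at 0 in both groups. It stood at 356 and 434 CPM in SE KO PlaB and at 188 and 191 in Dux KD PlaB. Pecam1, at 311 CPM in PlaB and 115 in DMSO, made up most of the sum in these 2 groups. In PlaB against DMSO, of the 7 genes tested 3 were called higher and none lower. Their median log2 fold change was 0.72, against 0.22 over all genes. The squamous or intestinal epithelium list stood at 70.9 to 73.9 CPM in SE KO RA and at 31.3 to 37.6 in RA, with Krt14 and Trp63 at 0 in SE KO RA. Cdx1, at 64.9 CPM against 26.7, made up most of it, and of the 8 genes 3 were called higher and 2 lower, with a median of -0.74 that was -0.65 with genes of very few counts at their bound or left out. The fibroblast or feeder list stood between 17.4 and 120 CPM, highest in SE KO Dux OE, where 5 of 6 genes were called higher and none lower against Dux OE. The primitive endoderm list stood at 175 to 181 CPM in RA, 107 to 112 in SE KO RA and 44.3 to 46.5 in DMSO, with 7 of 8 genes called higher in RA and 2 lower in SE KO RA against RA. Its sum was highest in Dux KD RA (243 to 247 CPM), then in SE KO PlaB (203 to 223), against 39.5 to 47.6 in PlaB. The trophectoderm list stood at 465 to 488 CPM in PlaB and 111 in DMSO. Krt8 (302 CPM in PlaB) and Krt18 (131) made up most of the PlaB sum, and of the 7 genes 5 were called higher and 2 lower, Eomes (-1.52) and Tfap2c (-1.32). The neural list stood at 231 to 238 CPM in SE KO RA and 184 to 196 in RA, with 3 of 7 genes called higher and none lower. Their part in the Klf results was not tested. In bulk samples fewer cells of a type and less RNA per cell cannot be told apart.

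Over the 13 group means of log2 CPM, Klf4 and Klf5 had r = 0.78 (Spearman rho 0.68), which fell to r = 0.33 without PlaB and SE KO RA. Klf2 and Klf4 had r = 0.33 (rho -0.04), and -0.17 without those groups. Klf4 and Klf17 had r = -0.49 (rho -0.81), and -0.75 without those groups. These are descriptions over groups that share library scaling. Of 13369 genes searched, those most like Klf2 over the 13 groups were Rexo1 (r = 0.971, rho 0.66), Ppp2r5d (0.970, 0.74) and Mgat4b (0.969, 0.65). These 3 genes were lower in PlaB than in DMSO, at 17.3, 23.7 and 0.673 CPM against 70.7, 123 and 29.1. Those most like Klf4 were B230354K17Rik (0.934, 0.70), Gm48643 (0.920, 0.62) and Gm10351 (0.918, 0.76). For Klf5 they were Gid8 (0.966, 0.93), E130202H07Rik (0.960, 0.84) and Zfp819 (0.948, 0.85). For Klf17, with 13370 genes searched, they were As3mt (0.878, 0.88), Oat (0.863, 0.89) and Fggy (0.847, 0.82).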

How the data were processed

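The authors deposited raw read counts by gene, without any scaling, for poly(A) RNA-seq of 26 libraries in 13 groups. Per the labels, the tools were FastQC, Trimmomatic, STAR, featureCounts and DESeq2 on mm10, with versions, the strand setting and the handling of multi-mapped reads not given in the sources used here. Groups, doses and times came from the labels. Counts were fitted with edgeR 4.0.16 in R 4.3.3 (quasi-likelihood F-test, 1 model of all libraries, TMM, filterByExpr, prior count 0.125) over 20953 genes, with Benjamini-Hochberg adjustment over all of them. The common biological coefficient of variation was 0.0833. Median depth was 18276934 counts. Floors and CPM cover counting error only, since reads were not assigned to molecules. Replicates differed by more than sampling noise (chi-square per degree of freedom 1.55 to 30.2). Same-numbered replicates did not deviate together (correlation -0.0473 to 0.0237 over 13 comparisons), so the block fit is an alternative. The code was tested on simulated counts.

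Alternatives were RLE scaling, library size only, no low-count filter, a replicate block, a fit of the compared groups only, DESeq2 1.42.0, the other control, leaving out each replicate, and a fit without the Dux KD PlaB and SE KO PlaB libraries. The last, and the comparisons of Dux KD PlaB, SE KO PlaB and SE KO RA with DMSO, were chosen after seeing the data. The 4 genes and the lists were chosen with earlier results of these data known. Named genes were the 4 members, at most 3 called genes of the largest fold a list and comparison, and per member the 3 genes with the highest Pearson r of mean log2 CPM (prior count 2) among genes with a mean of at least 1.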

Additional observations from a re-analysis of the deposited data

Results flagged for a closer look

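Of 24 tests of whether a KD or KO effect on a member differed between inductions, 12 passed the threshold (edgeR, adjusted p under 0.05 and an absolute log2 difference of at least 1). The 4 differences with PlaB, where 45.1 to 52.2% of all genes were called, gave 9 of them, and the other 2 differences, with 12.3% and 20.8% of genes called, gave 3. For Klf2, the Dux KD effect in PlaB exceeded that in RA by 5.02 and that in Zscan4 OE by 4.84, and the SE KO effect in PlaB exceeded that in RA by 3.28 and that in Dux OE by 4.71. The SE KO effect on Klf2 in Dux OE minus that in RA was -1.43. For Klf4, the Dux KD effect in PlaB exceeded that in RA by 1.90 and that in Zscan4 OE by 2.22. The SE KO effect on Klf4 in PlaB exceeded that in RA by 4.25 and that in Dux OE by 1.56, and that in Dux OE exceeded that in RA by 2.70. For Klf5, the SE KO effect in PlaB exceeded that in RA by 2.13, and that in Dux OE exceeded that in RA by 1.31. Every difference with PlaB rests on the PlaB libraries and on Dux KD PlaB or SE KO PlaB, which kept a median share of 0.103 and 0.261 of the PlaB response, and the part of that in these values was not tested.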

How the results depend on the processing

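The count of members called moved by more than 1.5 times as follows. In RA against DMSO it was 1 instead of 3 with library size only and with untreated ESC as the control. In DuxR70A OE against Dux OE it was 0 instead of 1 with library size only, no low-count filter and DESeq2, and 0 to 1 when a replicate was left out. In Dux OE against ESC it was 2 instead of 0 with DMSO as the control. Leaving out 1 replicate gave 0 to 1 in Dux KD PlaB against DMSO and in Dux KD Zscan4 OE against Zscan4 OE. The replicate block changed 1 call of 110 results, Klf17 in SE KO PlaB against PlaB (-1.0), and the cause of none of these changes was tested.

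Directions that turned were these log2 values. With the other control, Klf2 was at -0.55 in RA, 0.75 in Dux OE and 0.12 in DuxR70A OE, Klf4 at -0.57 in Zscan4 OE and -0.61 in DuxR70A OE, and Klf17 at 0.15 in DuxR70A OE. With library size only, Klf4 was at 0.00 in Dux KD RA against RA, Klf5 at 0.02 in Dux KD PlaB and 0.11 in SE KO PlaB against DMSO, and the Klf5 difference of Dux KD effects in Zscan4 OE and RA at -0.14. That difference was -0.03 with no filter, where Klf17 in Dux KD PlaB against PlaB was 0.01. Klf5 in SE KO PlaB against DMSO was 0.00 with RLE and DESeq2 and 0.01 with only the groups compared. Leaving out replicates gave ranges across 0 of -0.29 to 0.14 (Klf17, Dux KD PlaB against PlaB), -0.98 to 0.01 (Klf4, Dux KD Zscan4 OE against Zscan4 OE), -0.90 to 0.08 and -0.17 to 0.16 (Klf4 and Klf5, Dux KD effect in Zscan4 OE minus in RA), -0.69 to 0.16 and -0.64 to 0.22 (Klf17, SE KO effect in Dux OE minus in RA and in PlaB minus in Dux OE), -0.16 to 0.34 (Klf2, SE KO PlaB against DMSO) and -0.10 to 0.04 (Klf5, the same). Over all genes, the count called moved beyond 1.5 times in 4 cases: 1547 against 2332 (Dux KD Zscan4 OE, groups compared only), 793 against 1319 (SE KO Dux OE, without Dux OE replicate 2), 3811 against 1992 (Dux OE, DMSO control) and 1897 against 3550 (DuxR70A OE, DMSO control). Scaling by library size only shifted all log2 fold changes of a comparison by -0.20 to 0.26. In the comparisons with no member called by edgeR, an unadjusted p under 0.05 was reached by 3 members in Zscan4 OE against ESC and in Dux KD Zscan4 OE against Zscan4 OE, by 1 in SE KO PlaB against DMSO, by none in the difference of Dux KD effects between Zscan4 OE and RA, and by 2 in each of the others, and DESeq2 called 0 in all of them. Klf17 had 4 to 31 counts a library, so depth limits it most.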
